A study of Mus musculus with 40 samples.

Results

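The clustered histone genes were followed in the mouse brain through every probe that measured a gene whose symbol on the array begins with Hist1h, Hist2h, Hist3h or Hist4h. These were 54 probes of the 55681 that measured genes, and they stood for 49 of 36406 genes. By class, 6 probes measured linker histone H1, 15 H2A, 12 H2B, 8 H3 and 13 H4. By gene cluster, 39 belonged to Hist1, 10 to Hist2, 3 to Hist3 and 2 to Hist4. RNA of the cerebrum (labelled cortex) and of the cerebellum of C57Bl/6 mice was hybridized to 40 Agilent 1-colour arrays, 4 for each of 10 groups. In each region, the wild-type groups were young (2 months) and aged (29 months) on a normal diet with 36 mg of α-tocopherol per kg, and aged on a diet deficient in α-tocopherol, the main form of vitamin E. The remaining groups were Ttpa-/- mice of 29 months on the deficient diet or on a supplemented diet with 600 mg of α-tocopherol per kg. The product of Ttpa is the transfer protein with which the liver passes α-tocopherol into the circulation. All Ttpa-/- mice were aged and none was on the normal diet, so loss of Ttpa could be compared at a matched diet only on the deficient one. By the study's methods each array was 1 of 4 mice of its group.

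Core histones H2A, H2B, H3 and H4 form the spool around which DNA is wound, and H1 binds the DNA that links the spools. Most genes of the histone clusters are transcribed in S phase, when new chromatin has to be packed, and their mRNAs end in a stem-loop bound by SLBP in place of a poly(A) tail. In neurons, which do not divide, the replication-independent histones from genes elsewhere, such as H3.3, take over much of the supply, and some clustered genes also give rise to longer polyadenylated transcripts.

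The probes read different stretches of these mRNAs. The histone stem-loop, or a part of it at the end of a probe, was found in 8 of the 54 probe sequences. Another 14 probes lay further downstream, at least 450 bases into the transcript for core histones or 700 for H1. The remaining 32, below those offsets, are called coding or 5′ probes. This class rests on the offset alone, and the probe of Hist1h2ag in it runs past the stop codon. All 6 gene probes of the array that held the whole stem-loop belonged to clustered histone genes, which is 0.0108% of gene probes. One of the polyadenylation hexamers AATAAA and ATTAAA was present in 3 of the 14 downstream probes and 1 of the 32 coding or 5′ probes, against 13.7% of all gene probes. The sequences below are those of the scanner files, on mm9, for the genes that the results turn on. The 3 linker histone probes shown lay in the coding sequence or at the 5′ end, and the capitals of Hist1h1e mark the stop codon.
Hist1h1b, chr13:21871923-21871982, minus strand: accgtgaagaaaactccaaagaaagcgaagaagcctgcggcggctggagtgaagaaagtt
Hist1h1e, chr13:23713707-23713766, minus strand: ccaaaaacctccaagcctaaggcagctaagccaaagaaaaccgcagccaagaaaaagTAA
Hist1h1a, chr13:23855888-23855947, plus strand: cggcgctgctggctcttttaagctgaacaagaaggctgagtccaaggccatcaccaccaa
The H2A genes differ little in their coding ends. In the next set the capitals mark the longest run of letters that each probe shared with a probe of another clustered histone gene, which was 42 bases between Hist1h2ah and Hist2h2ac.
Hist1h2af, chr13:23626113-23626172, plus strand: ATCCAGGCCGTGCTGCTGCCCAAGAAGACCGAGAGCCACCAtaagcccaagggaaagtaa
Hist1h2ah, chr13:22127035-22127094, minus strand: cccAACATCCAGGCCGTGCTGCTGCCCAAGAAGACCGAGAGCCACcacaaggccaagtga
Hist1h2ak, chr13:21845304-21845363, minus strand: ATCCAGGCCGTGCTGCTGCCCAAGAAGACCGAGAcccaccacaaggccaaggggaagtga
Hist2h2ac, chr3:96024378-96024437, minus strand: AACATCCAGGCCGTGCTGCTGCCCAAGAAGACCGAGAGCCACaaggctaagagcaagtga
A pair of H3 probes shared the letters from the start codon onward, and the capitals mark the start codon.
Hist1h3c, chr13:23837328-23837387, minus strand: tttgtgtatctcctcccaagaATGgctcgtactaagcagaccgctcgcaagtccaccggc
Hist1h3f, chr13:23636330-23636389, plus strand: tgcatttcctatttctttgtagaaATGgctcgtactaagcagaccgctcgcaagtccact
Of the last set only the final 30 bases of each probe are shown, with positions of the whole probe. The capitals mark the stem-loop in Hist2h2bb, its first bases in Hist1h2ab, and the polyadenylation hexamer in Hist3h2ba and Hist1h2be.
Hist2h2bb, chr3:96074056-96074115, plus strand: acccaaaaGGCTCTTTTCAGAGCCacttta
Hist1h2ab, chr13:23843392-23843451, plus strand: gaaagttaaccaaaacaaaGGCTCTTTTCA
Hist3h2ba, chr11:58762964-58763023, plus strand: gttcataatggtattAATAAAtttggttca
Hist1h2be, chr13:23675610-23675669, minus strand: tactgttcattATTAAAgcattcctgattg

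Several probes cannot be assigned to 1 gene. Runs of at least 20 bases were shared with a probe of another clustered histone gene by 12 of the coding or 5′ probes, 4 of the stem-loop probes and 0 of the downstream ones. Such a run was shared by 9 probes with a probe of a gene outside the clusters. Probes were compared with each other and not with transcripts, so those without a shared run may still match another gene. The 7 H2A probes of Hist1h2af, Hist1h2ag, Hist1h2ah, Hist1h2ak, Hist1h2an, Hist2h2aa2 and Hist2h2ac moved together from array to array, with correlations of 0.84 to 0.98 over 21 pairs after the group means were removed, and they are described below as 1 set. Over all 38 probes that were above background on every array, the median correlation of 703 pairs was 0.36. These correlations are a description over the 40 arrays, and the probes share RNA and hybridization.

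Of the 54 probes, 38 were well above background on all 40 arrays, 11 on 1 to 39 arrays and 5 on 0 arrays. At least 1 group had 42 of them above background on all 4 of its arrays, and only such probes entered a test. The 5 probes below background throughout measured Hist1h2bq, Hist1h3a, Hist1h3g and Hist3h2bb-ps, and the downstream probe of Hist4h4. Of the 8 stem-loop probes 3 were above background on all arrays, of the 14 downstream probes 9, and of the 32 coding or 5′ probes 26. The probes chosen for their signal, those of Hist1h2af, Hist1h2ah, Hist1h2ak, Hist1h2bc, Hist1h3d, Hist1h4d, Hist1h4k, Hist2h2aa2, Hist2h2ac and Hist2h4, lay between 3.42 and 5.53 on every array of the cerebrum and the cerebellum. Levels here and below are log2 signals relative to the 75th percentile of the same array, so that 0 is the level of that percentile. A change is a difference of mean levels, in log2 units. A change is called where the limma adjusted p is under 0.05 and the fold over 1.5, with adjustment over all probes tested in that comparison. Signals of different probes depend on their hybridization and are not compared with each other.

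Arrays correlated closely within groups, while their signal levels differed. Processed signals had a 75th percentile between 365 and 925, 28623 to 34178 of the 55589 probes with a value on every array were well above background, and arrays of a group correlated at 0.983 to 0.998. The Ttpa probe that gave a signal was above background on 12 of 12 wild-type arrays of the cerebellum and on 1 of 8 Ttpa-/- arrays there, and in the cerebrum on 1 of 12 wild-type arrays and 0 of 8 Ttpa-/- arrays. The genotype could thus be checked in the cerebellum only. The summed level of 10 markers of cerebellar neurons was 9.34 to 9.81 on cerebellum arrays and 4.21 to 5.07 on cerebrum arrays, and that of 10 markers of forebrain neurons was 4.18 to 5.10 and 6.43 to 6.88. The 40 arrays lay on 5 slides of 8. Both groups lay on 1 slide in the comparison of age in the cerebrum, of the deficient diet in the wild-type cerebellum, and of the supplemented with the deficient diet in the Ttpa-/- cerebellum. In every other comparison the slide and the group cannot be told apart.

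With age, nearly all clustered histone probes of the cerebrum were lower, each by a small amount. Of 39 tested, 38 had a lower mean in aged than in young wild-type mice, where 56.4% of all probes tested did, and the median change of the members was -0.21 against -0.03 for all probes. Of the 39, 1 was called, Hist1h1b, which was lower, and 0 were called higher. The percentages called over all probes were 0.499 lower and 1.59 higher. The 4 aged arrays all lay below the 4 young ones for 17 of the 39 probes and above them for 0, and the groups did not overlap in 14.0% of all probes. The share of members whose groups did not overlap was thus above that of all probes, whereas 1 call of 39 says little beside the background. When each array was left out in turn, 33 to 38 members were below 0 and 17 to 22 did not overlap, where 16.1% to 21.6% of all probes did not. The 33 came without the 4th aged array, in which Hist1h1c, Hist1h2ah, Hist1h2ak and Hist1h1a lay apart from the rest of the group. The 7 correlated H2A probes are all among the 17, and 10 of the 39 probes had an unadjusted limma p under 0.05. The share of all probes at that cut is not given, here or below, so such counts show no excess among the members.

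**Figure D1:**
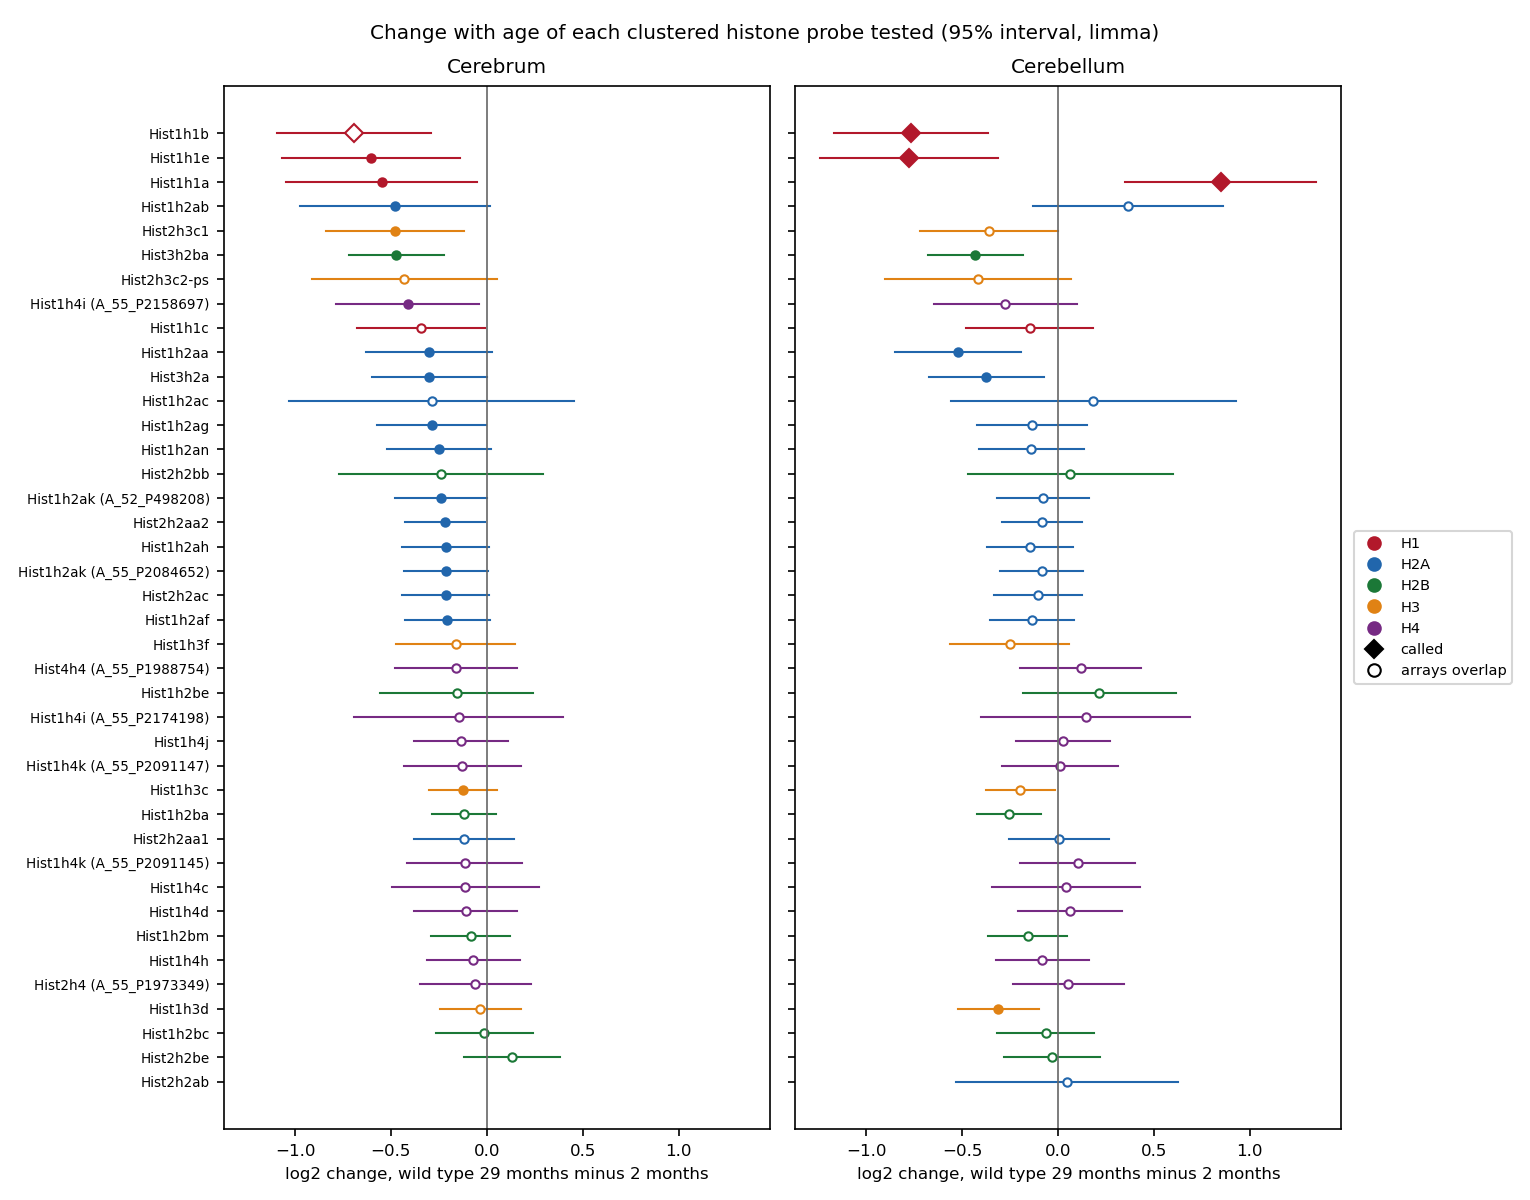
Change with age of every clustered histone probe tested, in log2 units (wild type of 29 months minus 2 months), in the cerebrum and the cerebellum, with the 95% interval of limma. Diamonds are called probes, filled symbols are probes whose 4 aged and 4 young arrays did not overlap, and colours are histone classes. In the cerebrum 38 of 39 probes lie left of 0, in the cerebellum 25 of 40.

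The linker histones showed the largest change by aging in the cerebrum, with a median of -0.58 over 4 tested probes, all lower. For Hist1h1b, which encodes H1.5, the young arrays read -1.91, -2.08, -2.62 and -1.88 and the aged arrays -2.98, -2.79, -2.58 and -2.91. The 3rd young array was as low as the highest aged one, so that the groups overlapped at that point. The change was -0.69 (SE 0.20, limma adjusted p = 0.0375), a fold of 1.62. This call was lost under 11 of 18 alternatives, among them those without young array 1, 2 or 4 or aged array 1, 2 or 4 (limma adjusted p of 0.0815 to 0.128), while the change stayed negative, at -0.86 to -0.41. For Hist1h1e, which encodes H1.4, the young arrays read 1.80, 1.43, 1.55 and 1.94 and the aged arrays 1.08, 1.23, 1.12 and 0.86. Every aged array was below every young one, but the change of -0.61 (SE 0.23) did not pass the test (limma adjusted p = 0.152). Hist1h1a, which encodes H1.1, read -3.50, -3.49, -3.64 and -3.38 in young and -4.08, -4.11, -4.10 and -3.92 in aged mice, where it was above background on 1 of 4 arrays. The change of -0.55 again had groups that did not overlap and an adjusted p of 0.266 (limma). Its SE of 0.24 pools the spread of all 10 groups, with an aged cerebellum array at -1.90 among them. Hist1h1a passed the filter on dim probes through its young arrays and is counted among the 4 linker histone probes and among the 17 without overlap. Without it all 3 other linker histone probes tested were lower, and 16 of 38 members did not overlap. Hist1h1c, which encodes H1.2, had a difference of -0.35 with overlapping groups.

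Among the core histones the clearest difference in the cerebrum was in the Hist3 cluster. Hist3h2ba, an H2B gene, read 3.25, 3.16, 2.96 and 3.36 in young and 2.81, 2.75, 2.54 and 2.74 in aged mice. The groups did not overlap, and the change of -0.47 (SE 0.12) had a limma adjusted p of 0.0181, but its fold was below the threshold. Its neighbour Hist3h2a, an H2A gene, read 3.15, 2.96, 2.78 and 2.86 in young and 2.69, 2.63, 2.59 and 2.65 in aged mice, a change of -0.30 that did not pass (limma adjusted p = 0.335). Both were lower on every aged array, although their arrays correlated only weakly within groups (0.33). The 13 H2A probes tested were all lower, with a median of -0.24. As an example of the 7 correlated ones, Hist1h2ah read 5.40, 5.40, 5.25 and 5.53 in young and 5.20, 5.21, 5.20 and 5.11 in aged mice. The changes of the 7 lay between -0.29 and -0.21, and none passed the test. Of the 7 H2B probes 6 were lower (median -0.12), of the 5 H3 probes 5 (median -0.16), and of the 10 H4 probes 10 (median -0.12). Hist2h2be, an H2B gene, was the exception, at 0.13 with overlapping groups.

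The direction in the cerebrum was shared by all positions along the mRNA and all base compositions. The 27 coding or 5′ probes tested were all lower (median -0.21), as were the 3 stem-loop probes (median -0.24) and 8 of the 9 downstream probes (median -0.29). Probes of high GC content were lower in general. Of all probes with at least 60% GC, 79.6% had a lower mean in aged cerebrum (median -0.10), and all 11 members of that kind did (median -0.21). Of all probes under 40% GC, 50.1% did, and all 4 such members did (median -0.32). The part of GC content in the members' change was not tested. Scaling the arrays in other ways left 36 to 38 of the 39 below 0.

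In the cerebellum the change by aging was mixed, with calls in both directions that all fell on linker histones. Of 40 probes tested, 25 were lower, with a median of -0.08 against -0.01 for all probes. Hist1h1b and Hist1h1e were called lower and Hist1h1a higher, where 1.04% of all probes were called lower and 3.99% higher. Groups did not overlap in 7 members, 6 of them lower, where the groups of 19.1% of all probes did not overlap. When single arrays were left out, 24 to 34 members were below 0, with medians of -0.13 to -0.05, and 7 to 12 did not overlap. The 34 came without the 4th aged array and 33 without the 2nd young one. The 12, of which 11 were lower, came without the 1st aged or the 4th young array, where 22.1% and 26.2% of all probes did not overlap. The young arrays shared a slide with Ttpa-/- cerebrum and the aged arrays lay on another, so slide and age cannot be told apart here.

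Hist1h1b read -0.27, -0.83, -0.92 and -0.53 in young and -1.51, -1.37, -1.38 and -1.35 in aged cerebellum. The groups were well apart, and the change was -0.77 (SE 0.20, limma adjusted p = 0.00887), a fold of 1.70, with an adjusted p of 0.0532 without the 1st young array. Hist1h1e read 2.87, 1.99, 1.86 and 2.15 against 1.02, 1.57, 1.50 and 1.68. Every aged array was again below every young one, with the extremes on the 1st array of each group, and the change was -0.77 (SE 0.23, limma adjusted p = 0.0228). Without the 1st young array its adjusted p was 0.143, and without the 1st aged array 0.108. Hist1h1a read -3.80, -4.47, -3.94 and -3.86 in young and -1.90, -3.67, -3.66 and -3.45 in aged cerebellum. Its 1st aged array stood far above the other aged arrays, which were themselves above all young ones. The change was 0.85 (SE 0.24, limma adjusted p = 0.0203), without that array 0.42 (limma adjusted p = 0.151), and without the 2nd young array, the lowest, 0.70 (limma adjusted p = 0.106).

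**Figure D2:**
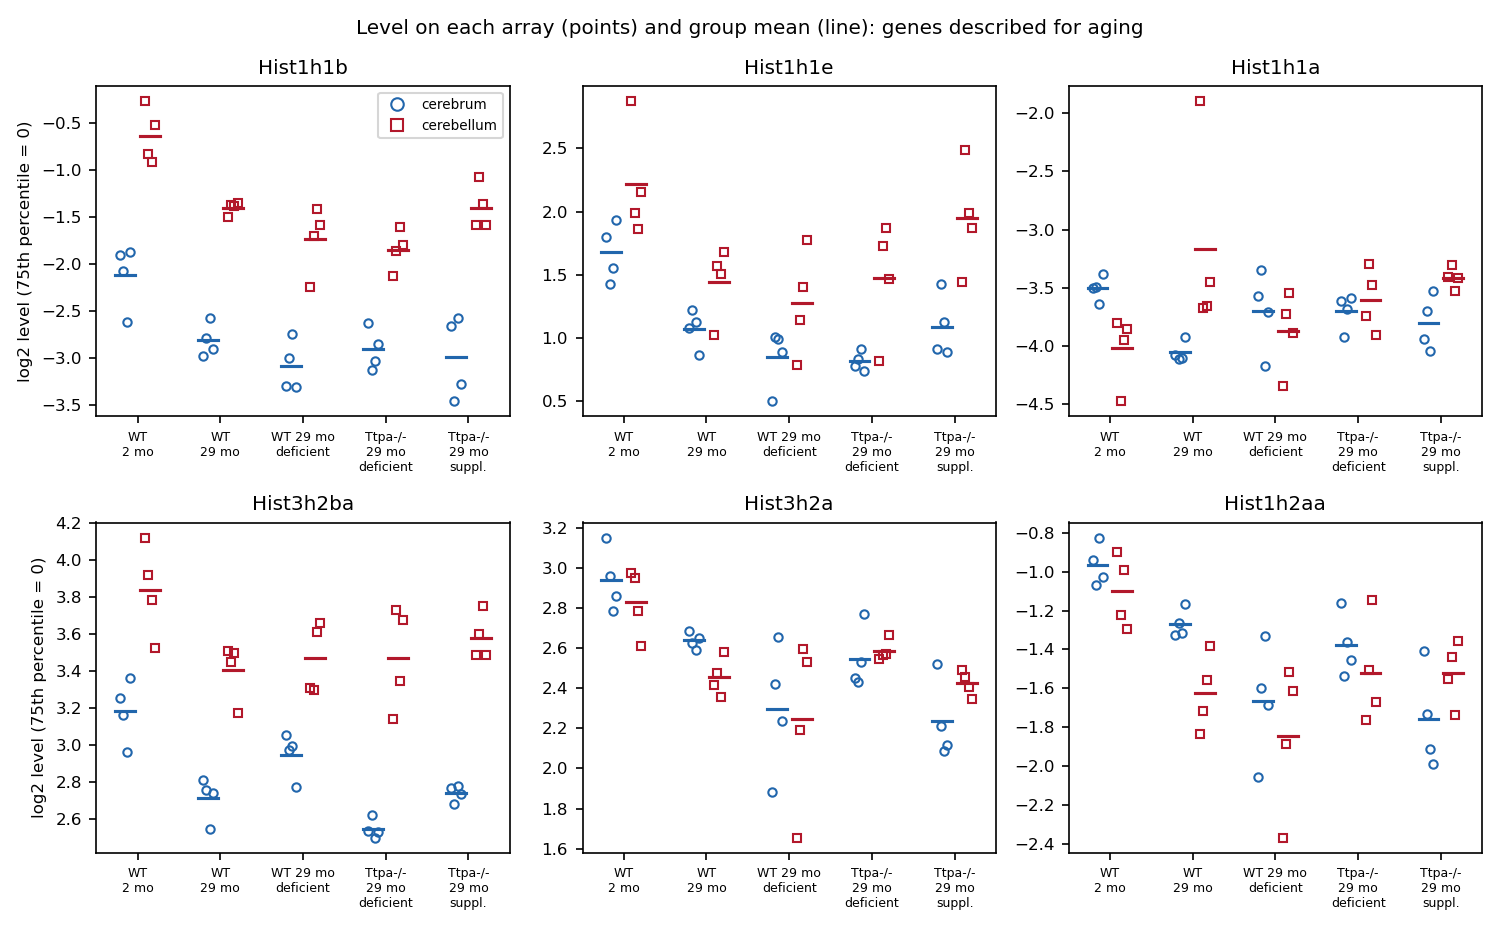
Level on every array (points) and group mean (lines) of Hist1h1b, Hist1h1e, Hist1h1a, Hist3h2ba, Hist3h2a and Hist1h2aa in the 10 groups, in log2 units relative to the array's 75th percentile, with the cerebrum in blue circles and the cerebellum in red squares. In cerebellum, Hist1h1b read -0.92 or more in the young group and -1.07 or less on all 16 aged arrays.

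Outside the linker histones, 4 further probes of the aged cerebellum had an adjusted p under 0.05 and a fold short of the threshold. Hist3h2ba read 4.12, 3.92, 3.78 and 3.52 in young and 3.50, 3.45, 3.50 and 3.17 in aged mice, a change of -0.43 (limma adjusted p = 0.0168). Hist1h2aa, an H2A gene best known from testis, read -0.90, -1.22, -0.99 and -1.29 against -1.83, -1.72, -1.56 and -1.38, a change of -0.52 (limma adjusted p = 0.0313). Hist1h3d, an H3 gene, read 5.02, 4.85, 4.81 and 4.73 against 4.52, 4.49, 4.48 and 4.67, a change of -0.31 (limma adjusted p = 0.0472). The fourth was Hist1h2ba, an H2B gene also known from testis, at -0.25 with overlapping groups (limma adjusted p = 0.0391). In Hist3h2ba, Hist1h2aa and Hist1h3d no aged array reached the lowest young one, as in Hist3h2a at -0.37 (limma adjusted p = 0.104). The 5 H3 probes were all lower (median -0.31), whereas 8 of the 10 H4 probes were higher (median 0.05) and the 3 stem-loop probes were all above 0, at 0.01 to 0.37.

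The comparisons of age in the 2 regions share no arrays, but whether they share mice is not stated in the sources used here. Of 39 probes tested in both, 24 were lower in both regions and 14 were lower in the cerebrum and higher in the cerebellum. Lower in both regions, with groups that did not overlap in either, were 4 genes, Hist1h1e, Hist3h2ba, Hist3h2a and Hist1h2aa. The share of all probes is not given for these counts over both regions, so they show no excess among the members. The groups of Hist1h1a did not overlap in either region, with opposite directions. The difference of the changes was itself tested. Hist1h1a was the only one of 40 probes called, with a difference of -1.40 (SE 0.35, limma adjusted p = 0.0259), since it was lower in aged cerebrum and higher in aged cerebellum. In aged cerebrum it was above background on 1 of 4 arrays, so the size of this difference rests on a level at the edge of detection. Over all probes, 1.46% were called in either direction. Without the 1st aged cerebellum array the difference was -0.97 (limma adjusted p = 0.0319). The call was lost without the 4th young cerebrum array (limma adjusted p = 0.0502) or the 2nd young cerebellum array (limma adjusted p = 0.0839). For the other members a difference between regions was not shown.

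The lower level of Hist1h1b was also present in the aged groups on other diets and of the other genotype. Over all 16 aged arrays of the cerebellum it read -2.25 to -1.07, against -0.92 to -0.27 in the 4 young arrays. In the cerebrum the 16 aged arrays read -3.46 to -2.58 and the young arrays -2.62 to -1.88. Hist1h2aa in the cerebrum read -2.05 to -1.16 over the aged arrays and -1.07 to -0.82 over the young ones, and Hist3h2a 1.88 to 2.77 against 2.78 to 3.15. The aged groups differ in diet, genotype and slide, and they were compared with 1 set of young arrays.

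Few genes of the surrounding pathway moved with age. Of the replication-independent histones, 11 of 13 were tested and 0 were called in the cerebrum. In the cerebellum 1 was called, H1f0, the linker histone of resting cells, at -0.71 (SE 0.18, limma adjusted p = 0.00593). Of the factors that transcribe or process histone mRNA, 18 of 20 were tested in the cerebrum and 19 in the cerebellum. Lsm11, a subunit of the U7 particle that cuts histone mRNA, was lower in aged cerebrum at -0.61 (limma adjusted p = 0.0450), and E2f1, a transcription factor of S phase, was lower in aged cerebellum at -0.85 (limma adjusted p = 0.000521). The other factors tested, with Slbp among them, were not called, nor were the 16 histone chaperones tested. Of 30 genes of S phase and mitosis, 18 were tested in the cerebrum and 19 in the cerebellum. Rrm2, a subunit of ribonucleotide reductase, was lower in the cerebrum at -0.72 (limma adjusted p = 0.00780). The replication helicase gene Mcm6, at 0.98, and the checkpoint gene Bub1b, at 1.21, were higher in the cerebellum (limma adjusted p = 2.21e-08 and 0.00980). The median changes of these 4 lists were -0.10, 0.00, 0.01 and -0.08 in the cerebrum and -0.11, -0.01, 0.00 and 0.16 in the cerebellum.

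Markers of other cell types also moved with age, and their part in the histone changes was not tested. Of 10 microglial markers, 4 were called higher in aged cerebrum, with a summed level of 7.09 to 7.29 in young and 7.0 to 7.45 in aged mice. In the cerebellum 8 were higher, with 6.41 to 6.53 and 6.73 to 6.93. Cd68 had the largest microglial change in both regions (0.93 and 2.99), and the astrocyte gene Gfap was higher in both (1.51 and 1.87). Choroid plexus markers were lower in aged cerebellum for 3 of 8 tested, with Ttr at -7.70 and a summed level of 3.21 to 7.97 in young and 2.67 to 2.87 in aged mice. The erythroid markers ran from 1.69 to 2.94 and from 3.60 to 6.40 there, with 2 of 4 tested called higher and Alas2 at 2.67, and from -0.94 to 1.03 and from 2.25 to 3.48 in the cerebrum, with 0 of 2 called. In the cerebrum 2 markers of forebrain neurons were lower, Adora2a at -1.82 and Rgs9. In the cerebellum 2 of 6 tested were higher, with Bcl11b at 1.67. The summed level of forebrain neuron markers was 6.65 to 6.88 in young and 6.43 to 6.53 in aged cerebrum, without overlap. That of cerebellar neuron markers was 9.55 to 9.79 in young and 9.36 to 9.49 in aged cerebellum, also without overlap, with 0 of 10 called and a median change of -0.37. Oligodendrocyte and lymphocyte markers had 0 calls in both regions. In whole tissue, fewer cells of a type and less RNA per cell cannot be told apart.

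The deficient diet alone gave no call among the clustered histones of aged wild-type mice in either region. In the cerebrum 0 of 40 were called by limma, against 0.223% of all probes, with 8 at an unadjusted p under 0.05 and 27 lower (median -0.15). In the cerebellum, within 1 slide, 0 of 40 were called against 1.27%, with 11 at an unadjusted p under 0.05. The methods' t-test without adjustment passed 1 probe in each region. For none of these unadjusted counts is the share of all probes given. Of the 40 in the cerebellum, 34 were lower, where 51.9% of all probes were (median -0.19 against -0.01), and 31 to 36 were lower with each array left out. The groups did not overlap in 3 of the 40, all lower, where those of 16.8% of all probes did not. The 7 correlated H2A probes are among the 40 and are not separate results. Scaling to the array median moved the median of all probes there to -0.19 and left 37 members below 0 with a median of -0.37. This scaling shifts all probes of a comparison alike, so the gap of 0.18 to all probes cannot change with it. The members nearest a call were Hist1h2be, an H2B gene with a downstream probe, at -0.77 in the cerebrum (limma adjusted p = 0.0637) and -0.61 in the cerebellum (limma adjusted p = 0.0622), and Hist1h1a at -0.70 in the cerebellum (limma adjusted p = 0.0857).

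**Figure D3:**
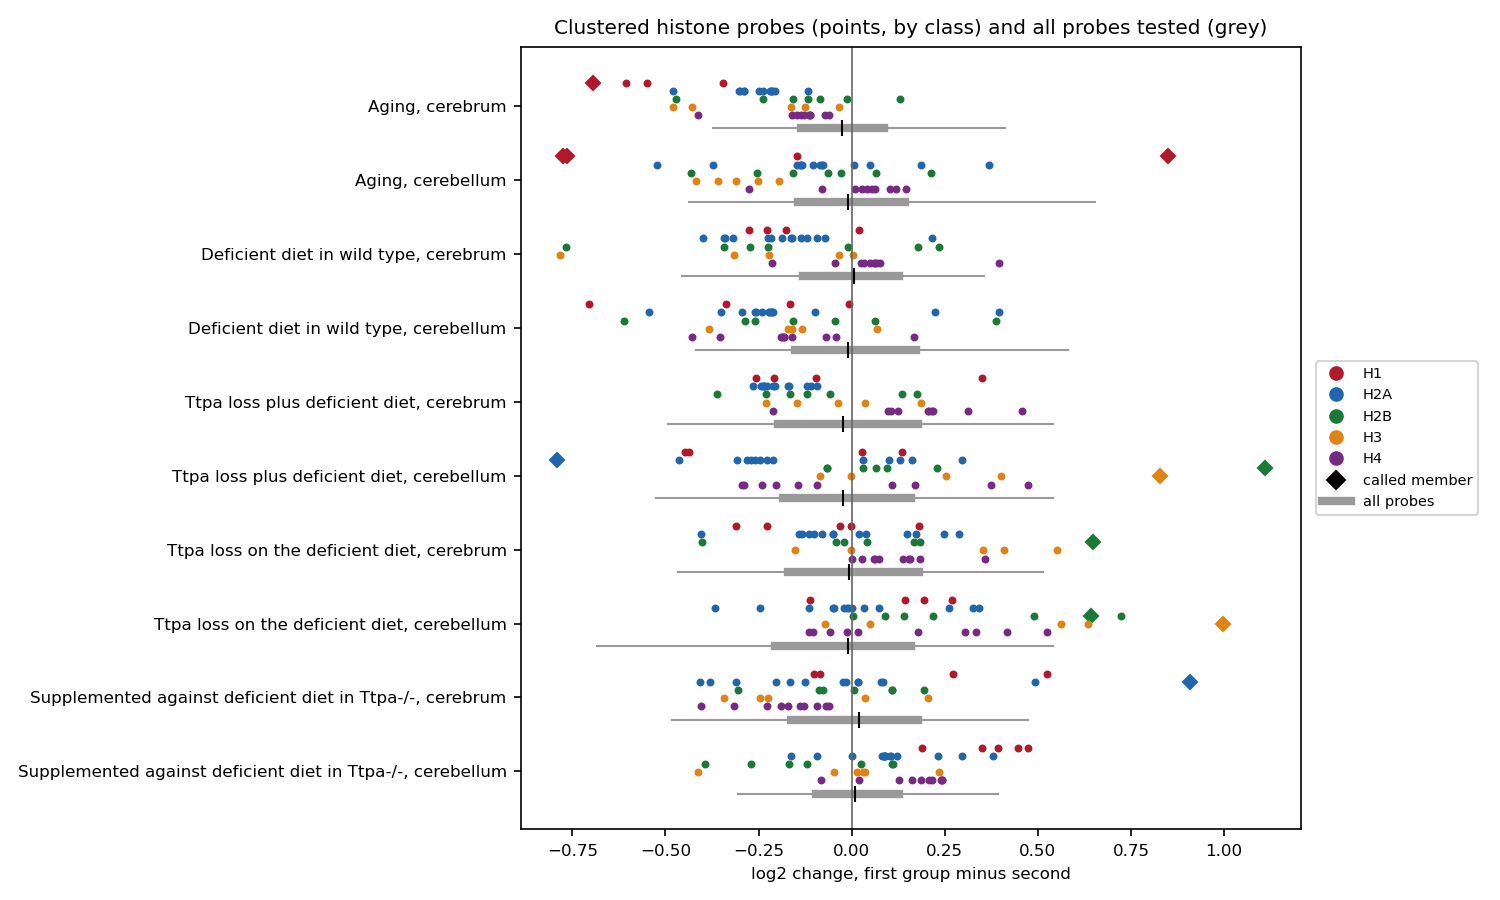
Change of every clustered histone probe tested (points, coloured by class, diamonds for called probes) in the 10 comparisons of age, diet and genotype, in log2 units. Grey bars beneath each row give the 5th to 95th and the 25th to 75th percentile of all probes tested and the tick their median. With age in the cerebrum 38 of 39 members lie left of 0, and in no comparison were more than 3 called.

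Ttpa-/- mice on the deficient diet were compared with normally fed aged wild-type mice, so genotype and diet differed together. This comparison and those of age and of diet share the aged wild-type arrays. In the cerebrum 0 of 39 clustered histones were called by limma, where 4.75% of all probes were, and the methods' t-test without adjustment passed 0. Of the 39, 25 were lower, where 53.4% of all probes were, and 8 had an unadjusted p under 0.05, without a share of all probes beside it. High GC content went with higher signal in this comparison, with a median of 0.30 over all probes of at least 60% GC and 0.03 over the 11 members of that kind. In the cerebellum 3 of 40 were called, 2 higher and 1 lower, where 2.67% of all probes were called higher and 1.79% lower.

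Hist2h2bb, an H2B gene whose probe ends at the stem-loop, had the largest rise in this comparison in the cerebellum. The aged wild-type arrays read -0.80, -1.06, -1.0 and -0.27 and the Ttpa-/- arrays on the deficient diet -0.86, 0.90, 0.63 and 0.63. Of the Ttpa-/- arrays 3 were above all wild-type ones, and the 1st lay among them. The change was 1.11 (SE 0.26, limma adjusted p = 0.00494), a fold of 2.16, and 1.51 without that array. Against wild type on the same deficient diet, which read -0.06, -0.75, -0.59 and -0.20, the difference was 0.72 (SE 0.26, limma adjusted p = 0.0623) and was not called. On the supplemented diet the Ttpa-/- arrays read -0.29, 0.76, 0.83 and 0.45, with the 1st array again the lowest. In the cerebrum the same gene read -1.47, -1.40, -1.38 and -1.63 in aged wild-type and -1.23, -1.29, -1.28 and -1.56 in Ttpa-/- mice on the deficient diet, and was not called.

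Hist1h3f, an H3 gene whose probe starts ahead of the start codon, was higher in Ttpa-/- cerebellum on every array. The aged wild-type arrays read -2.45, -2.76, -2.54 and -2.19 and the Ttpa-/- arrays on the deficient diet -1.52, -1.40, -1.74 and -1.97. The groups did not overlap, and the change was 0.83 (SE 0.15, limma adjusted p = 0.000525). Against wild-type mice on the same deficient diet, which read -2.62, -2.64, -2.64 and -2.72, the change was 0.998 (SE 0.15, limma adjusted p = 4.69e-05), a fold of 2.00, and this call was kept under all 18 alternatives tried for it. The supplemented Ttpa-/- arrays read -1.59, -1.68, -1.68 and -1.56, also above every wild-type array of the cerebellum. The highest of the 12 wild-type arrays was a young one at -1.98. Hist1h3c, which shares the start of its coding sequence with this probe, was not called in either comparison. In the cerebrum Hist1h3f was not called. The wild-type and the Ttpa-/- arrays of the cerebellum lay on different slides, which cannot be told apart from genotype, whereas the 2 Ttpa-/- groups shared 1.

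Hist1h2ab, an H2A gene whose probe ends with the first bases of the stem-loop, was the member called lower in this comparison with normally fed wild type. It read 0.13, -0.66, -0.07 and -0.39 in aged wild-type cerebellum and -1.79, -0.96, -0.62 and -0.81 in Ttpa-/- cerebellum on the deficient diet. The groups overlapped at 1 array each, and the change was -0.79 (SE 0.24, limma adjusted p = 0.0279). Without the 1st Ttpa-/- array it was -0.54 (limma adjusted p = 0.140), and without wild-type array 1 or 3 the adjusted p was 0.106 or 0.0786. Wild-type cerebellum on the deficient diet read -1.50, -0.17, -0.53 and -0.97, and against it the difference of the Ttpa-/- group was -0.25 (SE 0.24, limma adjusted p = 0.533) and was not called. The deficient diet alone gave a difference of -0.55 in wild type (limma adjusted p = 0.189), also not called. The stem-loop probes thus moved in both directions here. The 9 downstream probes tested in the cerebellum were all above 0, by 0.03 to 0.25, while 20 of the 28 coding or 5′ probes were below 0. Of the 11 members with at least 60% GC, 9 had a lower mean, where 26.7% of all such probes did, and the median was -0.24 over these members and 0.22 over all such probes.

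**Figure D4:**
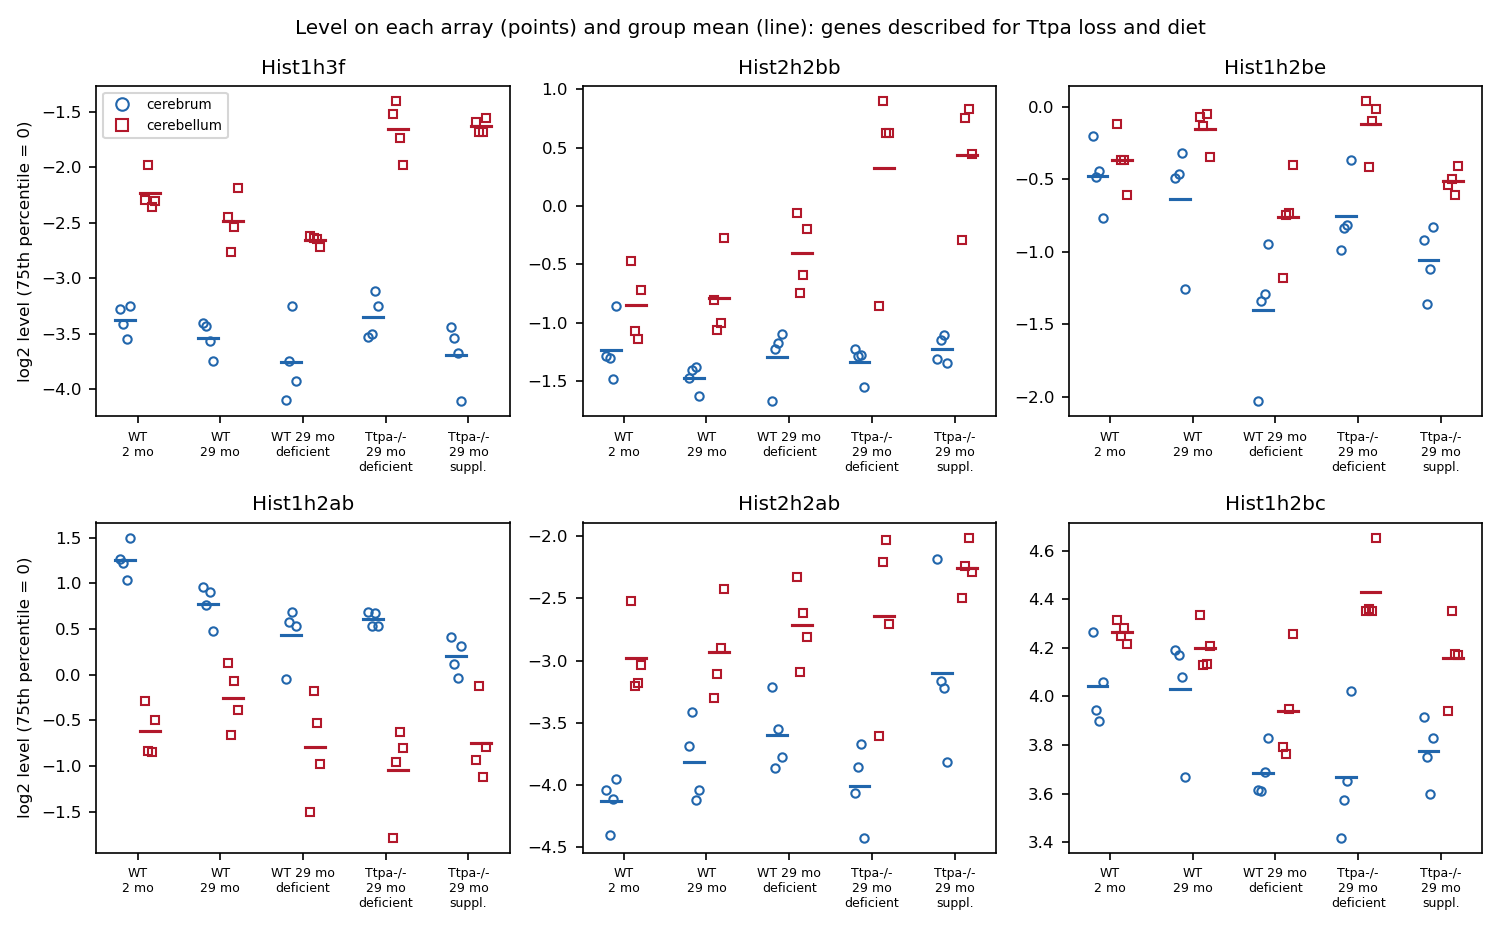
Level on every array (points) and group mean (lines) of Hist1h3f, Hist2h2bb, Hist1h2be, Hist1h2ab, Hist2h2ab and Hist1h2bc in the 10 groups, in log2 units relative to the array's 75th percentile, with the cerebrum in blue circles and the cerebellum in red squares. The 8 Ttpa-/- cerebellum arrays of Hist1h3f lie between -1.97 and -1.40, and the 12 wild-type arrays between -2.76 and -1.98.

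The effect of Ttpa loss with deficiency differed between the regions for 1 of 40 members, Hist1h2bc, an H2B gene with a downstream probe. In the cerebrum it read 4.19, 4.17, 4.08 and 3.67 in aged wild-type and 3.42, 3.57, 3.65 and 4.02 in Ttpa-/- mice. In the cerebellum it read 4.33, 4.13, 4.13 and 4.21 in wild-type and 4.35, 4.36, 4.35 and 4.65 in Ttpa-/- mice. It was thus lower on most Ttpa-/- arrays of the cerebrum and higher on all of the cerebellum, with the 4th array of each cerebrum group on the side of the other group. The difference of the changes was -0.59 (SE 0.17, limma adjusted p = 0.0351), and neither change was called by itself. Over all probes, 3.38% were called in either direction, and 1 of 40 members is not above that share. The size of the difference was close to the threshold of 0.585, and this call was not run under the alternatives. The same test called 0 of 41 members for the deficient diet, 0 of 41 for Ttpa loss on that diet and 0 of 42 for the supplemented diet.

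On the deficient diet, where genotype was the only labelled difference, loss of Ttpa gave 1 call of 41 in the cerebrum and 2 of 40 in the cerebellum, all higher. Over all probes 1.53% were called higher and 1.53% lower in the cerebrum, and 3.02% higher and 1.92% lower in the cerebellum, and 0 members were called lower in either. Hist1h2be was called in both regions. In the cerebrum it read -2.03, -1.34, -1.29 and -0.95 in wild-type and -0.99, -0.84, -0.82 and -0.37 in Ttpa-/- mice, a change of 0.65 (SE 0.20, limma adjusted p = 0.0267). In the cerebellum it read -1.18, -0.75, -0.73 and -0.40 against 0.04, -0.41, -0.10 and -0.01, a change of 0.64 (SE 0.20, limma adjusted p = 0.0266). The groups met at 1 array in each region. The calls were lost without the 1st wild-type array, where the changes were 0.44 and 0.51 (limma adjusted p = 0.160 and 0.137). They were also lost without Ttpa-/- array 3 or 4 in both regions, and in the cerebellum without wild-type array 2 or Ttpa-/- array 1 (limma adjusted p of 0.0511 to 0.0771). The wild-type arrays on the deficient diet were the low ones, since wild-type mice of the same age on normal diet read -1.26 to -0.32 in the cerebrum and -0.35 to -0.05 in the cerebellum. Scaling to the array median moved the median of all probes in the cerebellum from -0.01 to 0.17. With that scaling 6 of the 40 members were called higher, where 6.40% of all probes were (3.02% before). The median of the members was 0.08 before and 0.26 after. The gap of 0.09 to all probes is the same under both by construction. The members' median was 0.04 without the 2nd Ttpa-/- array, with 20 above 0, and 0.18 without the 1st, with 37 above 0.

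The supplemented diet was compared with the deficient diet in Ttpa-/- mice. In the cerebrum 1 of 40 members was called, higher, where 1.31% of all probes were called higher and 1.99% lower. Hist2h2ab, an H2A gene, read -4.06, -3.86, -3.67 and -4.42 on the deficient diet, above background on 3 of 4 arrays, and -2.18, -3.16, -3.22 and -3.82 on the supplemented diet. The gene thus entered this test through the supplemented group, where it was higher. The highest value came from 1 array, and the lowest supplemented array lay within the deficient group. The change was 0.91 (SE 0.28, limma adjusted p = 0.0292), and the call was lost under 11 of 18 alternatives, with 0.60 (limma adjusted p = 0.153) without the 1st supplemented array, and also without deficient array 1 or 4 or supplemented array 3 (limma adjusted p of 0.0526 to 0.0843). In the cerebellum, within 1 slide, 0 of 42 were called by limma, against 0.343% of all probes, with 5 at an unadjusted p under 0.05 and 0 by the methods' t-test. There 32 of 42 were above 0 (median 0.10 against 0.01), and 19 to 34 when each array was left out, with 19 without the 1st deficient array and 20 without the 2nd supplemented array. The 5 H1 probes tested were all above 0, at 0.19 to 0.47. Hist1h1t among these 5 and Hist1h3i among the 42 passed the filter on dim probes only through the supplemented group. For Hist1h1t a change above 0 was thus favoured by the filter.

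Region was the factor with the most calls. In young wild-type mice 9 of 40 members were higher in the cerebrum and 7 higher in the cerebellum, where 19.1% of all probes were called higher in the cerebrum and 19.3% lower. In aged wild-type mice 1 of 40 was higher in the cerebrum and 10 higher in the cerebellum, where 15.8% and 17.8% of all probes were. The number called at 2 months was 9 in place of 16 after quantile normalization, and at 29 months 6 in place of 11 after normexp background correction. The members' share of calls was thus near that of all probes except for those higher in aged cerebrum, where it was below. The fall from 9 to 1 calls does not show that the higher H2A signal was lost with age. At 29 months 11 of 14 H2A probes still had a higher mean in the cerebrum (median 0.48, and 0.61 at 2 months). The largest coding or 5′ difference then was 0.58, just short of the fold threshold (0.585 in log2 units).

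The regions differed by class. At 2 months 12 of the 14 H2A probes had a higher mean in the cerebrum and 8 of them were called. These 8 were Hist1h2ab and the 7 correlated probes that count as 1 set, so they are not 8 separate results. All 7 H2B probes, 3 of 4 H1 probes and 3 of 5 H3 probes had a higher mean in the cerebellum, with 2, 1 and 3 called. Hist1h2ab had the largest difference at 2 months, 1.88 (SE 0.24), with the cerebrum at 1.27, 1.22, 1.03 and 1.50 and the cerebellum at -0.29, -0.84, -0.84 and -0.50. It was the only member still called higher in the cerebrum at 29 months, at 1.03. The 7 correlated H2A probes were higher in young cerebrum by 0.61 to 0.69, as was the downstream probe of Hist1h4i, at 0.75. The 5′ probe of Hist1h4i went the other way and was called lower in aged cerebrum at -0.71, and the 2 probes of this gene correlated at only 0.22 within groups. Hist1h1b was lower in the cerebrum at both ages, at -1.48 and -1.41. So were Hist1h3f (-1.14 and -1.05), Hist2h2ab (-1.15 and -0.88), Hist1h3c (-0.78 and -0.71), Hist1h3d (-0.93 and -0.65) and Hist3h2ba (-0.65 and -0.69). Neither of these cerebrum groups had Hist2h2ab above background on all 4 arrays. It entered both tests through the cerebellum, where it was higher, so the size of its difference is uncertain. Under the alternatives it ran from -1.22 to -0.28 at 2 months and from -1.01 to -0.19 at 29 months. For Hist1h3d the young arrays read 3.99, 3.95, 3.84 and 3.92 in the cerebrum and 5.02, 4.85, 4.81 and 4.73 in the cerebellum, far apart. Hist2h2be was called lower in the cerebrum at 2 months only (-0.69). Hist1h1a (-0.88), Hist1h1c (-0.63) and Hist2h2bb (-0.69) were called at 29 months only. Hist1h1a was above background on 1 of 4 aged cerebrum arrays and entered this test through the cerebellum, where it was higher. Its cerebellum mean includes the array at -1.90, and its difference ran from -1.05 to -0.27 under the alternatives. Whether the differences between regions changed between the ages was tested only through the difference of aging, in which Hist1h1a alone was called.

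**Figure D5:**
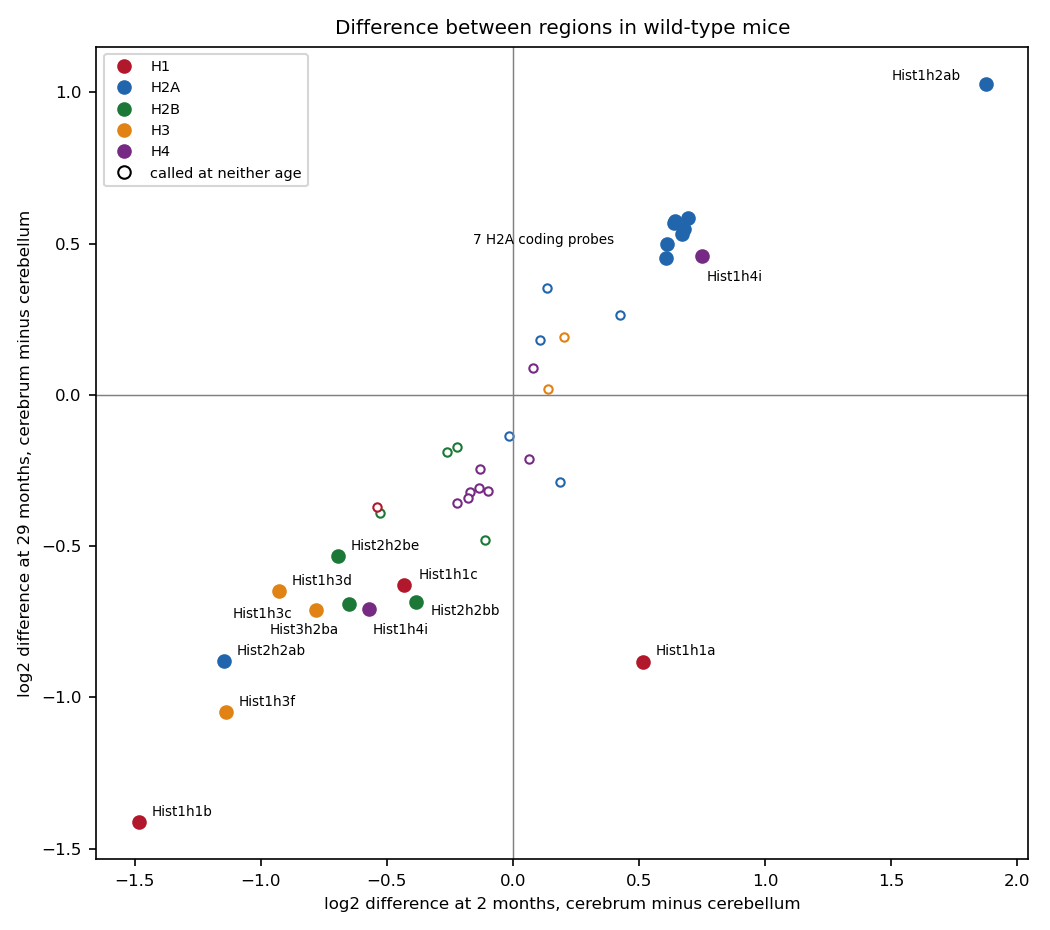
Difference between cerebrum and cerebellum of each clustered histone probe in wild-type mice of 2 months (x axis) and 29 months (y axis), in log2 units, coloured by class, with filled points for probes called at 1 age or both. Hist1h2ab lies at 1.88 and 1.03, Hist1h1b at -1.48 and -1.41, and Hist1h1a changes side.

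The promoters of the genes were searched for the octamer ATTTGCAT on both strands, so also as ATGCAAAT, which is bound by POU factors such as OCT1 and is known from H2B genes. All 49 genes were matched to RefSeq and 43 had a promoter in its table (GRCm38.p6, 250 bases before to 50 after the start). The octamer was present in 6 of 9 H2B and 7 of 14 H2A genes, in 0 of 6 H1, 0 of 6 H3 and 0 of 8 H4 genes, and in 1.74% of all 32851 promoters. Hist1h1a, Hist1h1b and Hist1h1e did not have these letters in this window, while Hist2h2bb, Hist3h2a and 1 of the promoters listed for Hist1h2be did. The promoters of Hist2h2bb and Hist3h2a are shown with the octamer in capitals, 48 and 119 bases before the start.
Hist2h2bb promoter, chr3:96269450-96269749, plus strand: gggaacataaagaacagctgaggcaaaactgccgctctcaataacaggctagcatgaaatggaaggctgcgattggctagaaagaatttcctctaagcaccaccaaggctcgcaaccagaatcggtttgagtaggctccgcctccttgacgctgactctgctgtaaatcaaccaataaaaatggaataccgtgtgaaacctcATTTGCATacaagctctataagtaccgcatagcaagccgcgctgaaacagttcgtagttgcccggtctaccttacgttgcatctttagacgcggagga
Hist3h2a promoter, chr11:58954435-58954734, plus strand: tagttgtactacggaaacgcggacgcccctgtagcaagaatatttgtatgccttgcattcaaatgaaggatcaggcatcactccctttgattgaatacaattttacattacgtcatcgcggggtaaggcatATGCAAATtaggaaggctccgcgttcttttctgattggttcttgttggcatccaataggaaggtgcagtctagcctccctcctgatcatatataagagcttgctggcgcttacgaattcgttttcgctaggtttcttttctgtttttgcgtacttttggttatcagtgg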

How the data were processed

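Total RNA was hybridized to Agilent 1-colour arrays (40 arrays), and the deposited scanner files hold processed Cy3 intensity values made by the authors with Feature Extraction, whose version is 10.7.3.1 per the file headers and 10.1.1.1 in the submitters' processing notes. The deposited log2 table matched the 75th-percentile-scaled signal centred per probe (median absolute difference 0.000915; column medians -0.235 to 0.185), and served as an alternative. Here, unflagged spots of a probe were averaged, log2 transformed and reduced by the log2 75th percentile of the array, since the methods name only a global normalization. All 40 arrays were fitted with 1 coefficient per group (limma 3.58.1, R 4.3.3). A probe was tested where every array of 1 of the compared groups had it well above background, with Benjamini-Hochberg adjustment, and called at an adjusted p under 0.05 and a fold over 1.5. The code was tested on simulated data. The p-values rest on the spread between arrays within groups, pooled for each probe over all 10 groups of both regions. A noisy group thus enters every test of that probe, also between groups with little spread. The number of arrays limits the precision.

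The named members are those called in any comparison and the 8 with the highest mean signal in each region. From the other lists the called gene with the largest change in each direction was named for age, and further genes were chosen after their values were seen. Members and lists were chosen with earlier results of these data known. The lists covered replication-independent histones, histone mRNA processing and transcription, histone chaperones, S phase and mitosis, and markers of forebrain neurons, cerebellar neurons, microglia, oligodendrocytes and precursors, astrocytes, choroid plexus, erythroid cells and lymphocytes. Same-numbered arrays correlated above 0 throughout only between the supplemented and deficient Ttpa-/- cerebrum (0.102 to 0.450, mean 0.246). A replicate block left the 1 call there. The mean was as high for age in the cerebrum (0.250, lowest -0.0037) and for the supplemented diet in the Ttpa-/- cerebellum (0.336, lowest -0.0205). The labels do not say what a number marks. The labelling primer is not given in the sources used here, so how far mRNAs without a poly(A) tail were labelled is not known. Alternatives covered scaling, background correction, the filter, the fit, the test and leaving out arrays. Counts of members below 0, of groups without overlap and their medians with each array left out or under other scalings were chosen after seeing the data.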

Additional observations from a re-analysis of the deposited data

Results flagged for a closer look

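In 13 of 250 groups of 4 arrays looked at for the named members, 1 array stood apart from the other 3 by Dixon's test, which is 5.2%, and chance alone gives about 1 in 20. The levels are log2 values relative to the 75th percentile of the array. In Ttpa-/- cerebellum on the deficient diet, array 1 read low for 4 genes. It was at 4.3334 for Hist1h4k (others 5.14 to 5.17), at 4.0478 for Hist2h4 (4.82 to 4.88), at 3.4413 for Hist1h4d (4.10 to 4.21) and at -0.8575 for Hist2h2bb (0.63 to 0.90). Array 4 of that group was at 4.6538 for Hist1h2bc (4.35 to 4.36).

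In aged wild-type cerebrum on the normal diet, array 4 was at 5.1099 for Hist1h2ah (5.20 to 5.21), at 4.7551 for Hist1h2ak (4.89 to 4.90), at 0.3294 for Hist1h1c (1.04 to 1.13) and at -3.9206 for Hist1h1a (-4.11 to -4.08). In the cerebellum of that group, array 1 was at -1.8978 for Hist1h1a (-3.67 to -3.45). Single arrays also stood apart for Hist1h4k in young cerebrum (array 4 at 5.0886, others 4.90 to 4.92), for Hist1h2ah in wild-type cerebellum on the deficient diet (array 1 at 4.176, others 4.41 to 4.43) and for Hist1h2ak in Ttpa-/- cerebrum on the deficient diet (array 4 at 4.7641, others 4.56 to 4.58).

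For 2 genes the change differed between the regions by the test of the difference. The change with age in Hist1h1a was lower in the cerebrum than in the cerebellum by a difference of -1.3971 (limma adjusted p = 0.0259), although only 1 of the 4 aged cerebrum arrays had this gene above background. The change with Ttpa loss and the deficient diet in Hist1h2bc had a difference of -0.5903 (limma adjusted p = 0.0351). Its size was close to the threshold of 0.585, and this call was not run under the alternatives.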

How the results depend on the processing

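No named change turned its direction under any alternative run. Of 388 tests of single members under alternatives other than leaving out an array, 327 kept their call and 61 lost it, and of 320 with an array left out 278 kept it and 42 lost it. The number of members called stayed within 1.5 times the main number in 86 of 128 alternatives and in 84 of 112 with an array left out. For the other alternatives, the causes were not tested, and the counts were as follows. In aging cerebrum the 1 call became 0 with median scaling, normexp correction, no filter on dim probes, the compared groups alone or the adjusted t-test of the methods, and 2 with that t-test unadjusted or without a fold threshold. In aging cerebellum the 3 became 1 with median scaling, the compared groups alone or the adjusted t-test, and 7 without the fold threshold. For the difference of aging between regions the 1 became 0 with median scaling, quantile normalization or the compared groups alone. For the deficient diet in wild type, the 0 became 1 with the unadjusted t-test in both regions, and in the cerebellum 1 with median scaling and 2 with quantile normalization. For Ttpa loss plus the deficient diet, the 0 of the cerebrum became 1 without the fold threshold, and the 3 of the cerebellum became 1 with the compared groups alone, 0 with the adjusted t-test and 5 without the fold threshold. For Ttpa loss on the deficient diet, the 1 of the cerebrum became 0 with median scaling, normexp correction, the compared groups alone or the adjusted t-test and 3 without the fold threshold. The 2 of the cerebellum became 6 with median scaling, where the share of all probes called higher went from 3.02% to 6.40%, 1 with the compared groups alone or the adjusted t-test and 4 without the fold threshold. For the supplemented diet in Ttpa-/- cerebrum, the 1 became 0 with median scaling, quantile normalization, normexp correction, no filter, the compared groups alone or either t-test, and 2 without the fold threshold. Between the regions, the 16 at 2 months became 9 with quantile normalization, and the 11 at 29 months became 6 with normexp correction and 24 without the fold threshold.

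When arrays were left out one at a time, the number called ran from 0 to 1 in aging cerebrum, 1 to 4 in aging cerebellum, 0 to 1 for the difference of aging, 0 to 2 and 0 to 1 for the deficient diet in wild-type cerebrum and cerebellum, 0 and 2 to 4 for Ttpa loss plus that diet, 0 to 2 and 1 to 5 for Ttpa loss on that diet, 0 to 2 and 0 for the supplemented diet, and 14 to 18 and 11 to 15 between the regions at 2 and 29 months. With the replicate block the number called was the same as without it in every comparison, such as 3 in aging cerebellum and 16 between the regions at 2 months. A slide block was not run, since it could not be fitted with each group on 1 slide, and the t-test was not made for the difference of aging. Scaling to the array median moved the median of all probes from -0.01 to -0.19 for the deficient diet in wild-type cerebellum, from -0.01 to 0.17 for Ttpa loss on that diet in the cerebellum and from 0.02 to -0.09 for the supplemented diet in the cerebrum. Of 54 probes, 12 were not above background on all arrays of any group and 16 not on every array, which limits what can be said of them.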
